A study of Mus musculus with 16 samples.

Results

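The germ-free (GF) state of this gnotobiotic mouse study was represented by 4 of the 16 GeneChips, 2 Mouse 430 2.0 GeneChips that cover the genome and 2 GlycoGeneChips, a custom design centred on carbohydrate genes. All GeneChips labelled GF were used, and no measured value entered the choice. The animals were adult NMRI mice, an inbred line per the study, fed a standard polysaccharide-rich diet. Epithelium was cut from cecal cryosections by laser capture, and equal amounts of RNA from 4 GF mice were pooled. On the Mouse 430 2.0 the pool was amplified and hybridized in duplicate, to GeneChips 9128 and 9129, whose spread therefore comes from handling after pooling and holds nothing of the variation among mice. The GlycoGeneChips 9175 and 9176 carry the same label, and how their targets were prepared is not given in the sources used here. The other 12 GeneChips came from pools of 4 NMRI mice on the same diet that had been colonized for 10 days with Bacteroides thetaiotaomicron (Bt), with Bifidobacterium longum (Bl) or with both (Bt/Bl), again with 2 GeneChips of each type per state. They serve below only to show where the GF profile differed. With 1 pool per state, every difference compares pools, and such differences cannot be told apart from differences between the groups of mice that made up the pools. A total of 18193 named genes were ranked by the mean GF signal of their brightest probe set on the Mouse 430 2.0, and 573 mouse genes were named on the GlycoGeneChip.

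The cecum is the blind pouch at the start of the large intestine. Its epithelium is a single layer folded into crypts without villi, in which stem cells at the crypt base renew absorptive colonocytes, mucus-secreting goblet cells, hormone-secreting enteroendocrine cells and chemosensory tuft cells. Colonocytes absorb salt, water and short-chain fatty acids, while uptake of bile acids and most dietary lipid belongs to the small intestine. In a germ-free mouse the lumen holds no microbial fermentation products, and bile acids reach the cecum without bacterial modification. The profile described here is that of the layer before it has met any microbe.

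The results turn most on 3 genes whose starts lie in RefSeq's promoter table for build GRCm38.p6, and their sequences are shown because 2 of them, Fabp6 and Apoa1, were the named genes with the largest positive difference of GF from colonized, and the third, Reg3b, is a labelled marker of this profile. Fabp6 encodes the cytosolic bile acid binding protein of ileal enterocytes, Apoa1 the main apolipoprotein of high-density lipoprotein, and Reg3b a secreted C-type lectin of the antimicrobial defence. The 150 bases before each start are given 5′ to 3′ on the gene's own strand, at chr11:43601563-43601712 (minus strand) for Fabp6, chr9:46228480-46228629 (plus strand) for Apoa1 and chr6:78370735-78370884 (plus strand) for Reg3b. Capitals mark the letters TATAAA found on either strand.
Fabp6: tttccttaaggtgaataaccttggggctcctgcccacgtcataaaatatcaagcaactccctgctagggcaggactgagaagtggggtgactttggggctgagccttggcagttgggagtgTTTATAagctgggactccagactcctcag
Apoa1: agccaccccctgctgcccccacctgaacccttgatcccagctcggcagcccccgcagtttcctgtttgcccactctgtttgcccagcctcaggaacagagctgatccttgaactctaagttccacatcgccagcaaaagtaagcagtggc
Reg3b: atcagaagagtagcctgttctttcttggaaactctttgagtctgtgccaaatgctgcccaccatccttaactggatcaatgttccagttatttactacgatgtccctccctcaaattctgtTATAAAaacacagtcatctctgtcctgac
TATAAA, the core of a TATA box, stood at positions -29 to -24 from the start of both Reg3b and Fabp6 (read on the opposite strand in Fabp6), and 7.57% of 32851 windows of this length hold it. It was not found in the Apoa1 window. A match describes letters only and was not tested as a binding site.

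The GF GeneChips resembled each other about as closely as those of the other states. Over 15331 probe sets above the median of all values on both, the 2 log2 signals had a Pearson correlation of 0.955 and their difference an SD of 0.563, and 8.2% of these probe sets differed by more than 2-fold. The duplicates of the colonized states gave correlations between 0.913 and 0.959. The GF pool stood apart in the Gapdh control ratio and in the sex-linked genes Xist and Eif2s3y. The ratio of 3′ to 5′ signal of Gapdh, which rises as RNA or its amplified copies shorten, was 5.66 and 7.26 in GF against 8.93 to 17.62 on the 6 colonized GeneChips, while that of Actb was 36.92 and 38.78 in GF against 21.43 to 36.3. Xist, the transcript of the inactive X chromosome in females, read 17157 and 22762 in GF against 3753 to 11176, and Eif2s3y, a Y-linked initiation factor gene, read 71 and 614 in GF against 3201 to 5657. The labels give no sex, whereas the study describes male mice, and the GF values of both genes go against that description. The colonized Xist values also lay above the median of all values, 583.1. By their brightest GF probe sets the Y-linked genes Kdm5d and Uty did not separate GF. Kdm5d read 559.3 and 581.3 in GF against 39.2 to 982.5, and Uty 831.5 and 1112.8 against 57.0 to 2033.2. Some dimmer probe sets read lower in GF than on most colonized GeneChips. Kdm5d gave 178.5 and 300.7 against 145.2 on GeneChip 9443 and 867.6 to 1159.5 on the others. Uty gave 306.8 and 27.6 against 78.4 and 233.5 on GeneChips 9443 and 9135 and 984.9 to 1576.5 on the others. A further Uty probe set gave 86.1 and 31.1 against 91.1 to 1080.6. The remaining probe set of each gene overlapped. All GF values of these dimmer probe sets lay under the median. The part of RNA quality and of the mice's sex in the differences from the colonized pools was not tested, and the GF levels below carry the same limit. Signals are in arbitrary units and depend on how well each probe set binds its transcript, so ranks place genes only roughly.

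The genes with the brightest GF signals were those of mitochondrial respiration, protein synthesis and the mature absorptive and goblet cell. Uqcrb, a subunit of complex III, ranked 1 with 766555 and 572065, and Hint1, a nucleotide hydrolase, ranked 2 with 661699 and 564905. Zg16, a lectin of goblet cell mucus, ranked 4 with 653866 and 521292, close to Fabp2, the intestinal fatty acid binding protein, which ranked 5 with 647554 and 505160. The ranges of the duplicates overlapped through all of these ranks, so their order is not resolved. Krt8, a keratin of simple epithelia, ranked 9 with 595720 and 429291. Car1, the carbonic anhydrase that marks large-intestinal absorptive cells, ranked 14 with 540835 and 426880, and Slc26a3, the chloride-bicarbonate exchanger of the colonocyte's apical membrane, ranked 21 with 420244 and 396140.

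**Figure D1:**
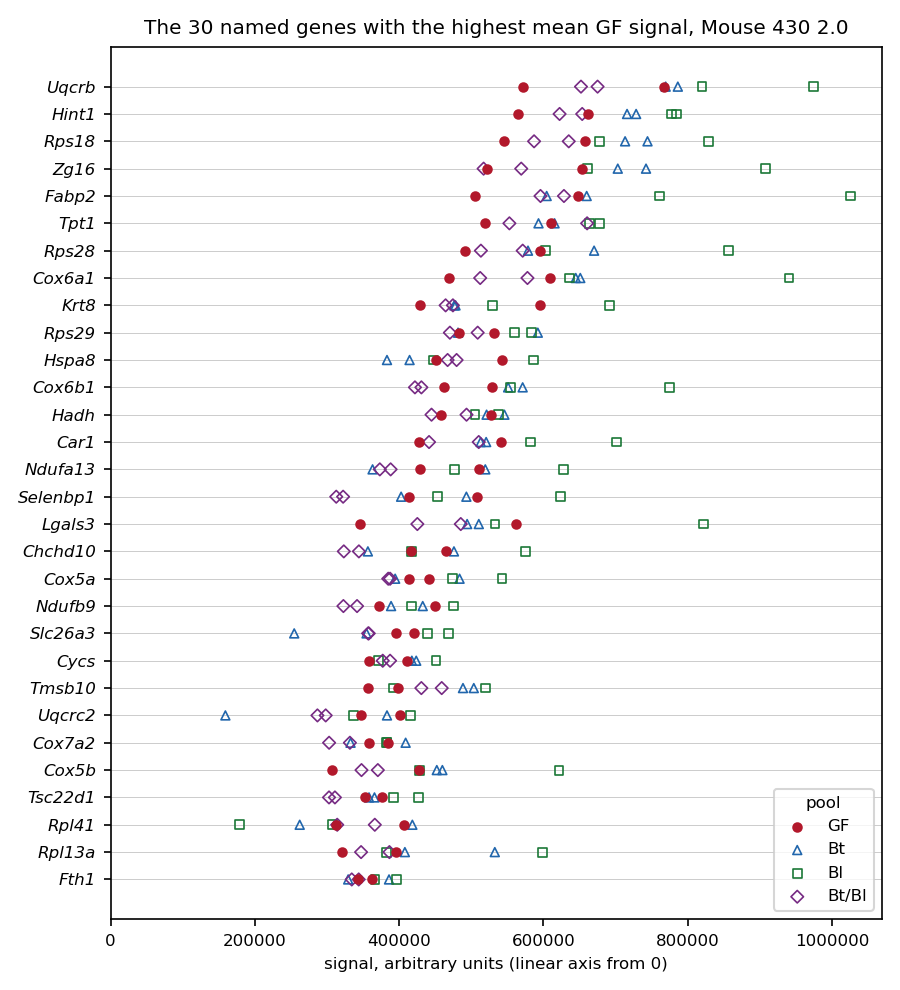
Signals of the 30 named genes with the highest mean GF signal on the Mouse 430 2.0, in arbitrary units on a linear axis that starts at 0. Each point is 1 GeneChip, filled for GF and open for the 3 colonized states. GF points lie among the colonized ones for most genes, and the GF duplicates of Uqcrb span 572065 to 766555.

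Of these 30 genes, 10 belonged to the respiratory chain or ATP synthase by symbol and 5 were ribosomal protein genes. Respiratory genes made up 33.33% of the 30 highest and 27% of the 100 highest, against 0.45% of all named genes, and ribosomal protein genes made up 16.67% and 14%, against 0.27%. The remaining 15 included Hspa8, a heat shock cognate chaperone, Hadh, an enzyme of mitochondrial fatty acid oxidation, Lgals3, a galectin, and Fth1, the ferritin heavy chain. Below them came Saa1, a serum amyloid A gene, at rank 34, Dmbt1, a mucosal scavenger receptor, at rank 38, the apical membrane gene Prom1 at rank 49, Krt20 at rank 56 and Pigr, the receptor that carries IgA across the epithelium, at rank 61. Most of this order was shared with the colonized pools: 25 of the 30 and 92 of the 100 highest GF genes were also among the 30 and 100 highest by the mean of the 6 colonized GeneChips. None of the 30 passed the test of GF against colonized. The choice of probe set changed the order more. With the median over a gene's probe sets 15 of the 30 stayed among the 30 highest, and with only probe sets whose suffix marks no shared sequence 17 stayed, without Zg16 and Slc26a3 in either case. Uqcrb, Fabp2, Krt8 and Car1 stayed under both.

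Most markers of the large-intestinal absorptive cell were bright. Of 24 measured members of the list 19 exceeded the median of all values (583.1) on both GF GeneChips, against 50% of all named genes, and the list's median stood at percentile 93.7 of the GF ranking. Besides Car1 and Slc26a3, the brightest were Lypd8, a protein that keeps flagellated bacteria from the mucosa (289447 and 211654), Guca2a, the peptide guanylin (230739 and 214754), the membrane mucin Muc3 (143431 and 148184) and the cytochrome P450 Cyp2c55 (95877 and 105404). Car4, a membrane-bound carbonic anhydrase, read 12048 and 8461. Aqp8, a water channel of surface colonocytes, read 10169 and 14517, below the range of 33810 to 49985 on the colonized GeneChips. It is taken up again with the comparison below.

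The small-intestinal lists were mixed. Fabp2 was the brightest gene of the lipid absorption list by far, while Fabp1, the liver-type protein that acts beside it in the proximal intestine, read only 744 and 700, near the median. Apob, the structural protein of chylomicrons, read 86650 and 81167, Apoa1 39656 and 34578, and the apolipoprotein gene Apoc2 13316 and 11229. Dgat1, which makes triglyceride, read 8729 and 8050, and Creb3l3, a transcription factor of lipid metabolism, 4731 and 5953. In all 13 of 18 members exceeded the median on both GeneChips, and the list's median percentile was 66.4. Among brush border enzymes and carriers 15 of 18 members exceeded it, with a median percentile of 74.8. The meprins Mep1b (75725 and 80390) and Mep1a (38093 and 41084) led, followed by the amino acid carrier subunit Slc3a1 (18458 and 19314), intestinal alkaline phosphatase Alpi (16880 and 14332), the aminopeptidase Enpep (11218 and 14539) and the glucose carrier Slc5a1 (8968 and 11291). Anpep, an aminopeptidase abundant on small-intestinal enterocytes, read 499 and 96, both under the median.

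In the list of ileal bile acid and vitamin B12 uptake, 8 of 10 members exceeded the median on both GF GeneChips, with a median percentile of 89.3. Fabp6 read 68029 and 95108 in GF and stood at rank 250, against 1179 to 1798 on the colonized GeneChips, where it ranked 6372. The other genes of ileal bile acid handling did not share this height. Slc10a2, the apical bile acid carrier that works ahead of Fabp6, read 860 and 2817, so that 1 of its 2 GF values lay within the colonized range of 635 to 1348. The basolateral carrier subunits Slc51a (6902 and 8796) and Slc51b (14378 and 14185) and the receptor gene Nr1h4 (9613 and 10896) were well above the median, and their GF values lay inside the colonized ranges. Tcn2, which carries vitamin B12 in plasma, read 55240 and 56424, and Amn, a part of the B12 receptor, 7084 and 6606. Fgf15 and Nr0b2, both induced by Nr1h4 in the ileum and named here after their values were seen, exceeded the median on 1 GeneChip each. On the GlycoGeneChip Fgf15 read 2029.6 and 3034.7 in GF, both above that table's median of 860.3. These values lay inside the colonized range there, 1886.9 to 4471.1.

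**Figure D2:**
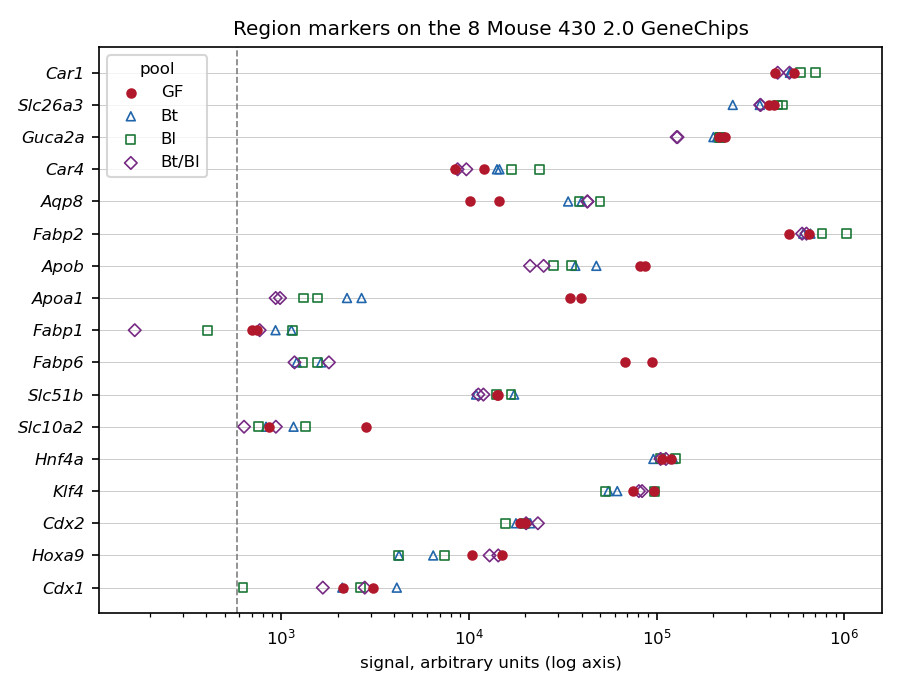
Signals of region markers on the 8 Mouse 430 2.0 GeneChips, in arbitrary units on a log axis, with GF filled and the colonized states open. The dashed line is the median of all values, 583.1. Fabp6 and Apoa1 are separated from every colonized point, while Car1, Fabp2 and Slc51b are not.

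Transcription factors that set position along the gut differed widely in level. Hnf4a, a nuclear receptor of enterocytes, read 119952 and 106287, and Klf4, a factor of differentiated surface and goblet cells, 74782 and 96749. Cdx2, the homeodomain factor that specifies intestine, read 18665 and 20002, its relative Cdx1 3099 and 2135, Klf5, a factor of proliferating crypt cells, 6276 and 4812, and the posterior Hox gene Hoxa9 10450 and 15087. Of 24 measured factors 14 exceeded the median on both GF GeneChips and 8 on neither, with a median percentile of 60.1. No factor passed the test of GF against colonized.

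Genes of epithelial cells in general were bright throughout. All 25 pan-epithelial genes exceeded the median on both GF GeneChips, with a median percentile of 96.8. Krt20 (288501 and 271188), Krt19 (130361 and 115373), the galectin Lgals4 (160648 and 154740), the tetraspanin Tspan8 (107784 and 136368), the adhesion molecule Epcam (26022 and 34403) and E-cadherin Cdh1 (33557 and 49926) stood between ranks 56 and 592. Goblet cell and mucus genes exceeded the median in 19 of 22 cases, with a median percentile of 89.8. After Zg16 the brightest were the trefoil peptide Tff3 (200540 and 181565), the membrane mucin Muc13 (132213 and 126706), Spink4 (44905 and 43044), Clca1, a secreted mucus-processing protein (33547 and 35968), and Retnlb, a resistin-like peptide (31409 and 34152). The gel-forming mucin Muc2 read 28272 and 30154.

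Rarer lineages were read through a few genes each, and the tuft cell list as a whole stood low. Enteroendocrine hormones of the distal gut were led by Gcg, which encodes proglucagon (11859 and 13785), Pyy (7548 and 8465), Nts (7284 and 7344), the chromogranin gene Chgb (4275 and 4842), Sct (3531 and 3371) and Insl5 (2482 and 1722). In that list 11 of 20 members exceeded the median on both GF GeneChips and the median percentile was 60.6. Of 12 tuft cell genes only 3 exceeded it, against 50% of all named genes, and the list's median percentile was 32.2. The 3 were the cation channel Trpm5 (1818 and 1434), the transcription factor Pou2f3 (1419 and 1320) and Alox5ap (1371 and 1064). The common marker Dclk1 exceeded the median on 1 GeneChip (774 and 342). Lyz1, a lysozyme of Paneth cells, read 20428 and 15797, and Reg4, a lectin of deep crypt secretory cells, 8233 and 8608, but Mmp7, the Paneth cell protease, stayed under the median with 146 and 100. The stem cell genes Lgr5 (31 and 1051) and Ascl2 (1461 and 263) were above the median on 1 GeneChip each. In their list 9 of 18 members exceeded it on both, with a median percentile of 49.5. Dividing cells were represented by Mki67 (6522 and 6744), Top2a (4606 and 4644), the replication helicase gene Mcm7 (7548 and 7054) and Stmn1 (10151 and 7440), and 21 of 27 cell cycle genes exceeded the median, with a median percentile of 63.6.

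**Figure D3:**
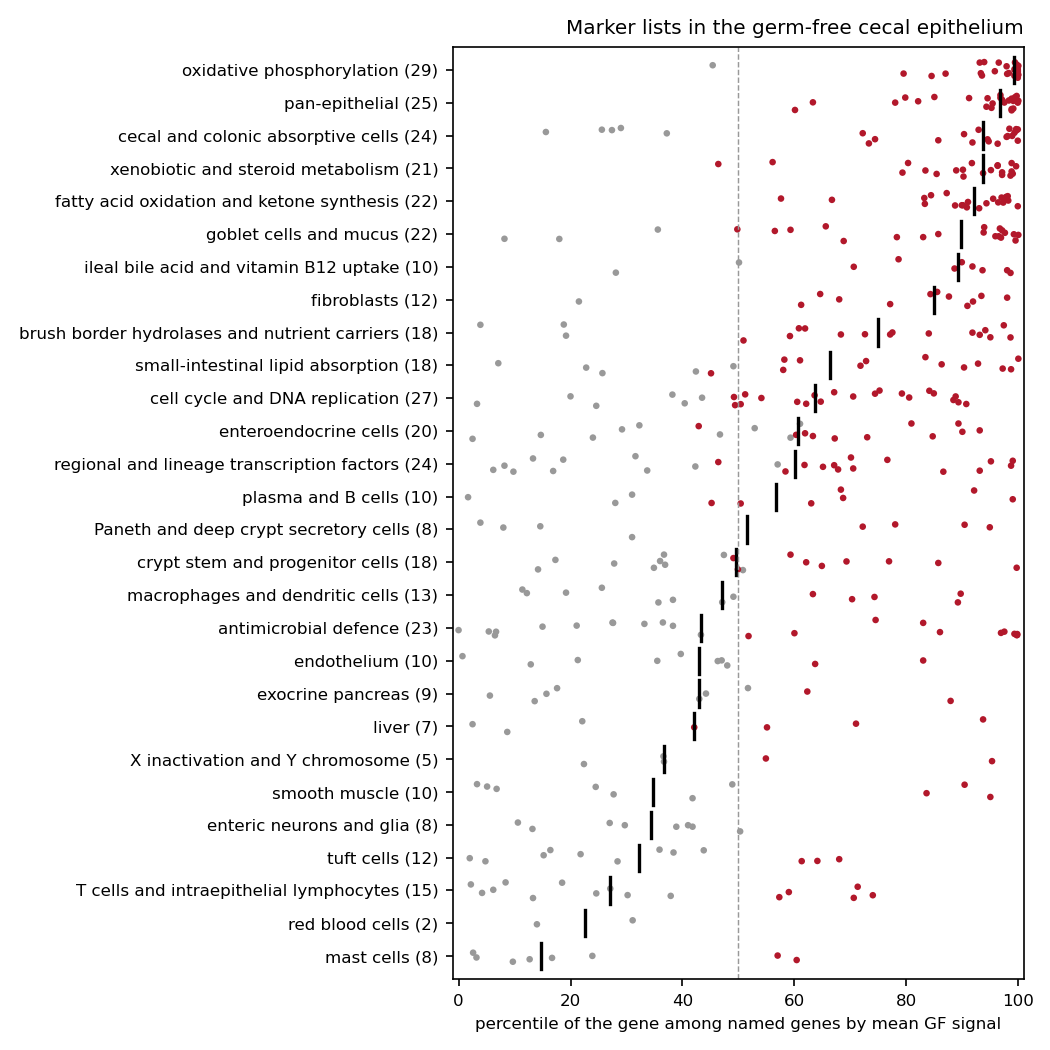
Percentile of each member of 28 marker lists in the GF ranking of 18193 named genes, with the number of measured members in parentheses. Red points exceeded the median of all values on both GF GeneChips, grey points did not, and the black bar is the list's median. Oxidative phosphorylation (99.3) and pan-epithelial genes (96.8) stand highest and mast cell genes (14.7) lowest.

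Lists of energy metabolism and detoxification were among the brightest. Of 29 oxidative phosphorylation genes 28 exceeded the median on both GF GeneChips and 12 were among the 100 highest genes, with a median percentile of 99.3. Atp5a1, the alpha subunit of ATP synthase, read 193457 and 219947, and its beta partner Atp5b 10767 and 15100. All 22 measured genes of fatty acid oxidation and ketone synthesis exceeded the median, with a median percentile of 92.0. Hadh (526672 and 457364) was followed by the trifunctional protein subunit Hadhb (54734 and 69304), the thiolases Acat1 (56718 and 59942) and Acaa2 (43351 and 43300), Ech1 (50300 and 49619) and Oxct1, which activates ketone bodies (35346 and 40220). All 21 measured genes of xenobiotic and steroid metabolism exceeded it as well, with a median percentile of 93.7. Aldh1a1, a retinaldehyde dehydrogenase, read 267907 and 234061, the sulfotransferase Sult1d1 100150 and 107291, the glutathione transferase Gstp1 96403 and 85424, Cyp2c65 88273 and 91796, and the glucuronosyltransferase Ugt2b34 83807 and 81478. No gene of these 3 lists passed the test of GF against colonized.

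Defence genes were split between very bright and dim members. Without any microbe present, Reg3b read 136536 and 151076 and stood at rank 133. Dmbt1 read 358678 and 307929, Pigr 271856 and 238814, the serum amyloid gene Saa3 37594 and 47810, and Nlrp6, an inflammasome sensor of the gut epithelium, 33389 and 29966. Saa1 read 480076 and 209548 by its brightest probe set and 288217 and 296403 by another, and since serum amyloid A genes share sequence its level is uncertain. Reg3g, the close relative of Reg3b that binds gram-positive bacteria, read only 2437 and 2154. In all 11 of 23 members exceeded the median on both GF GeneChips, and the list's median percentile was 43.3.

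The GF level of Reg3b lay between those of the colonized states. It read 405724 and 362467 in Bt and 252956 and 263622 in Bt/Bl, above both GF values, and 3803 and 4930 in Bl, below both. The other Reg3b probe set gave the same order, with 12069 and 15801 in GF, 54835 to 70388 in Bt, 37781 and 41154 in Bt/Bl and 1221 and 1016 in Bl, and so did a GlycoGeneChip probe set, with 44347 and 57740 in GF against 194932 and 199690, 110988 and 123018, and 3599 and 1195. A contrast of GF with the mean of the colonized states is not informative for such a pattern. The log2 difference was 0.93 (SE 0.17, adjusted p = 0.115 by limma) for the brighter and -0.02 (SE 0.19, adjusted p = 0.984) for the dimmer probe set.

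Transcripts of cells next to the epithelium were also measured. Plasma cell genes were led by Igha, the heavy chain of IgA (113964 and 95694), and Jchain, which joins IgA dimers (9551 and 11759). The summed signal of the 10 plasma and B cell genes was 131468 and 113836 in GF, against 19619 to 61515 on the colonized GeneChips, and 7 of the 10 exceeded the median. Fibroblast genes exceeded it in 11 of 12 cases, with a median percentile of 84.9, led by Adamdec1, a metalloprotease of the lamina propria (51699 and 59602), Col3a1 (15386 and 11560), Col6a2 (12628 and 8083) and Col1a2 (10335 and 7546). Their sum was 112763 and 109536 in GF against 41683 to 88237. In bulk samples, fewer cells of a type and less RNA per cell cannot be told apart.

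The other cell type lists had median percentiles under 50 in the GF ranking, from 14.7 for mast cells to 47.1 for macrophages. T cell genes exceeded the median in 5 of 15 cases (median percentile 27.1), with the receptor chain gene Cd3e at 262 and 670 and Cd3d at 169 and 588, and mast cell genes in 2 of 8 (14.7), with the proteases Mcpt1 at 52 and 83 and Mcpt2 at 59 and 63. Macrophage genes exceeded it in 5 of 13 cases (47.1), led by Cd14 (6307 and 8955) and Csf1r (7190 and 7365), although Cd68 read 176 and 177. Endothelial genes did so in 2 of 10 cases (43.0), with Pecam1 at 1029 and 74 and Cdh5 at 996 and 532, and smooth muscle genes in 3 of 10 (34.8), with Acta2 at 3910 and 4499 and Myh11 at 565 and 750. None of 8 enteric neuron and glia genes did so (34.3), with S100b at 155 and 1132 and Sox10 at 1232 and 82. Red blood cell genes gave 0 of 2 (22.5) and pancreatic genes 2 of 9 (43.0), led by Cela1 (6201 and 6403). Liver genes gave 4 of 7 (42.1), led by the transthyretin gene Ttr (15250 and 13592), with albumin, Alb, at 284 and 395. The summed T cell signal was 10329 to 11364 in GF against 8665 to 14565, so it overlapped, as did the macrophage sum of 23742 to 24466 against 20178 to 34128. The liver sum did not overlap, at 17153 to 19785 in GF against 4821 to 11957, although no liver gene was called.

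GF differed from the colonized pools at few genes. Of 12707 named genes tested with limma on log2 signals, 7 were higher in GF (0.0551%) and 12 were lower (0.0944%) at an adjusted p under 0.05. These came from 28 of 24865 probe sets, with 1268 at an unadjusted p under 0.05. By position alone both GF values lay above all 6 colonized values in 563 genes (4.43%) and below all of them in 541 (4.26%). The contrast set GF against the mean of Bt, Bl and Bt/Bl, so a gene that moved in only 1 of them could also pass. The calls depended on the GeneChips entered. Without GeneChip 9128 or without GeneChip 9129, 0 of 24865 probe sets passed by limma, with 815 and 1219 at an unadjusted p under 0.05, and without any 1 colonized GeneChip between 4 and 7 passed. With the duplicates averaged to 1 value per pool, Fabp6 alone passed (adjusted p = 0.00463). With median scaling of the GeneChips, Fabp6, Apoa1, Igha, Xist, Eif2s3y and Plet1 were the named genes that still passed, while Apob (adjusted p = 0.0642), Aqp8 (0.143) and Retnlb (0.2004) did not. A filter on the mean signal, chosen after seeing the data, kept each of the 19 genes in at least 6 of the 8 fits that left out 1 GeneChip.

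Fabp6 and Apoa1 stood furthest above the colonized pools. Fabp6 was 56.25-fold higher in GF (log2 difference 5.81, SE 0.28, adjusted p = 1.956e-05 by limma). Its GF values of 68029 and 95108 stood far above all colonized ones, and it passed in 6 of the 8 fits that left out 1 GeneChip but in neither fit without a GF GeneChip, where its adjusted p reached 0.104. Apoa1 passed with all 4 probe sets, at log2 differences between 3.77 and 4.62. Its brightest probe set in GF read 39656 and 34578 in GF but only 2245 and 2684 with Bt, 1321 and 1563 with Bl, and 936 and 987 with both species, and passed in 6 of 8 such fits. Apob read 86650 and 81167 in GF against 21192 to 47778 (log2 difference 1.42, SE 0.18, adjusted p = 0.0106), and passed in 0 of the 8. A dimmer Apob probe set gave 0.80 without passing (adjusted p = 0.751 by limma). In the lipid absorption list 2 of 15 tested members were called higher and none lower, with a median log2 difference of 0.16 against -0.03 over all genes tested, and in the list of bile acid and B12 uptake 1 of 8 was called, with a median of 0.21. Over all named genes tested 0.0551% were called higher. Fabp1, Fabp2 and Slc10a2 were not called. Pdzk1, also of the lipid absorption list, read 2305 and 1863 in GF against 39 to 95 on the colonized GeneChips. Its log2 difference was 1.83 (SE 0.28, adjusted p = 0.0463 by limma). It was not called because its mean log2 signal over all GeneChips lay under the median.

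Igha was the other strong difference. It read 113964 and 95694 in GF against 12171 and 13110 with Bt, 25565 and 27712 with Bl, and 49896 and 34067 with both species, with no overlap (log2 difference 2.12, SE 0.18, adjusted p = 0.000941 by limma), and another probe set gave 1.95. The dimmest Igha probe set gave 1.71 without passing (adjusted p = 0.0614 by limma). The brightest passed in 2 and that at 1.95 in 6 of the 8 fits that left out 1 GeneChip. Jchain, at 9551 and 11759 against 789 to 6182, lay above all colonized values without passing (log2 difference 1.80, SE 0.35, adjusted p = 0.167). Adamdec1 (51699 and 59602 against 13749 to 44297, log2 difference 1.12, adjusted p = 0.0405 by limma) and F2r, the thrombin receptor (35582 and 39364 against 9429 to 21583, 1.31, adjusted p = 0.0376), were higher with smaller margins and passed in none of the 8 fits. The other F2r probe set gave 0.67 without passing (adjusted p = 0.751 by limma). Igha made up 84.1 to 86.7% of the summed plasma and B cell signal in GF and Adamdec1 45.8 to 54.4% of the fibroblast sum, so those sums partly restate the calls. Without Adamdec1 the fibroblast sum was 61064 and 49933 in GF against 24290 to 43940. Without Igha the plasma and B cell sum was 17504 and 18142 (colonized 7157 to 11947), and without Jchain as well it was 7953 and 6383 (3567 to 8220), which overlapped. The part of captured lamina propria in the calls of Igha and Adamdec1 was not tested. Xist completed the 7 (log2 difference 1.79, SE 0.22, adjusted p = 0.0106).

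The 12 genes lower in GF included Eif2s3y (log2 difference -2.92, SE 0.30, adjusted p = 0.00425 by limma) and markers of absorptive and goblet cells. Aqp8 read 10169 and 14517 in GF against 33810 to 49985 in every colonized state (log2 difference -1.76, SE 0.19, adjusted p = 0.00432 by limma). Retnlb read 31409 and 34152 against 75687 to 100721 (-1.44, SE 0.17, adjusted p = 0.00738), and Prap1, a proline-rich acidic protein, 18873 and 15754 against 30592 to 58850 (-1.25, SE 0.19, adjusted p = 0.0405). For Aqp8 and Retnlb, and for the Prap1 probe set tested, every colonized value stood above both GF values. The other Prap1 probe set overlapped, with 1760 and 2006 in GF against 187 to 3617 (log2 difference 0.17, SE 0.69).

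For the other genes lower in GF the distance varied between the colonized states. Ang4, an antimicrobial ribonuclease, read 3818 and 4280 in GF, 6570 and 5535 with Bt, 9287 and 8912 with both species, and 46895 and 40107 with Bl. Its other probe set overlapped, with 4125.3 and 2649.6 in GF against 2553.5 to 18430.4, and did not pass. Ifit1, an interferon-induced gene, read 3390 and 4845 in GF and 43357 and 44125 in Bt/Bl, with 6239 to 9757 in the mono-associated pools, and its relative Ifit1bl1 25265 and 27453 in GF, 105547 and 109044 in Bt/Bl and 36600 to 43300 in the others. Vnn1, a pantetheinase, read 5024 and 6237 in GF and 32339 to 39171 in Bt, but 6428 and 9519 in Bl, next to the GF values. By its other probe set the Bl values, 3653.5 and 6295.7, lay on either side of the GF values of 5471.2 and 5602.4. That probe set did not pass (adjusted p = 0.0699 by limma). Acaa1b, a peroxisomal thiolase, read 112718 and 107337 in GF and at most 437043, in Bt. Tgm2, a transglutaminase, read 35618 and 29057 in GF by its brighter probe set and 53314 to 148963 in the colonized pools. Dbp, a transcription factor with a daily rhythm, read 3002 and 3863 in GF against 8142 to 29501. Plet1, a surface protein of colonic epithelium, read 365 and 281 in GF and 1637 to 12633 in the colonized pools by the probe set tested, whereas its brightest GF probe set read 2434 and 1865 in GF and 367 to 1964 in the others, so its probe sets disagreed in direction. None of the 12 genes passed in any of the 8 fits that left out 1 GeneChip.

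**Figure D4:**
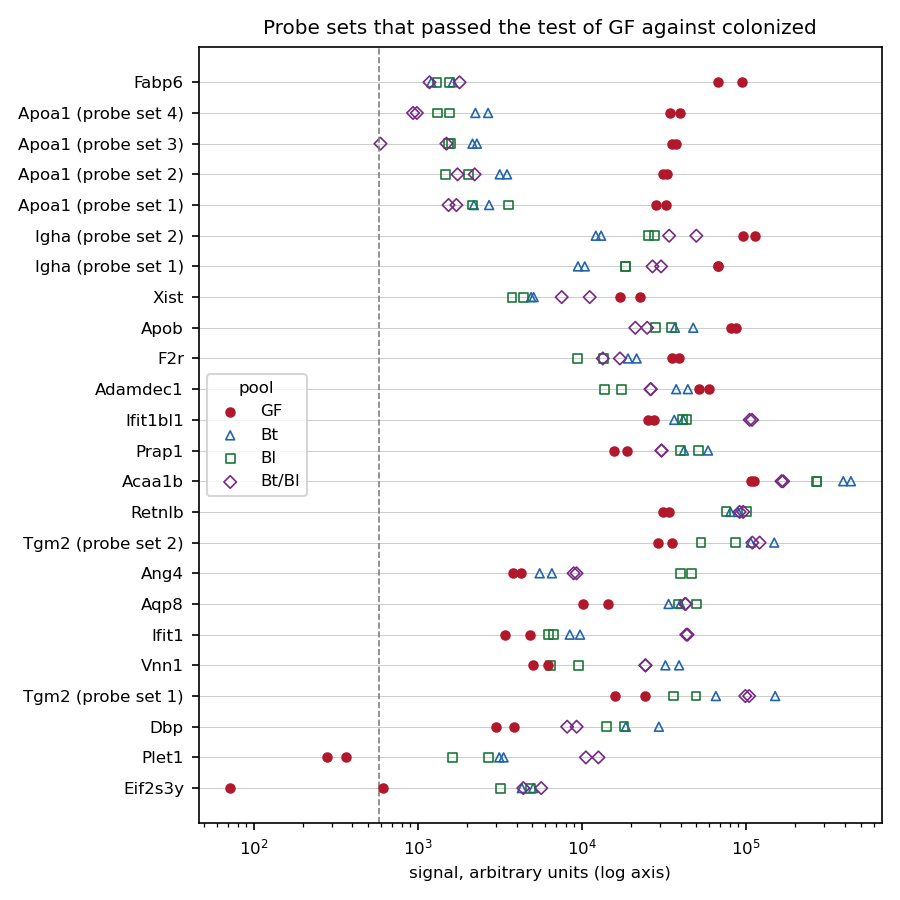
Signals of the probe sets naming 1 gene that passed the test of GF against colonized, in arbitrary units on a log axis, ordered by the log2 difference. GF points are filled, colonized points open, and the dashed line is the median of all values. Fabp6 at the top has GF values of 68029 and 95108, and Eif2s3y at the bottom 71 and 614.

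By list, the genes lower in GF were 2 of 21 tested goblet cell genes (Retnlb and Ang4), with a median log2 difference of -0.26 over that list, and 2 of 20 tested genes of the large-intestinal absorptive cell (Aqp8 and Plet1), with a median of -0.15. Over all named genes tested 0.0944% were called lower. Plet1 counts here only by the probe set tested. Cell cycle genes had a median of -0.34 and none was called, although Mki67 read 6522 and 6744 in GF against 7408 to 21106. The defence list had a median of -0.21 with none called, and oxidative phosphorylation 0.15 with none called. The highest list medians were those of fibroblasts (0.83 over 12 tested genes, with Adamdec1 called), mast cells (0.69 over 3, none called) and plasma and B cells (0.64 over 7, with Igha called). Over all genes tested the median was -0.03.

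The GlycoGeneChips gave a separate reading of the GF epithelium for a smaller set of genes. Their brightest GF genes were Lamp1, a lysosomal membrane glycoprotein (381104 and 386048), Lgals4 (253914 and 274252), superoxide dismutase Sod1 (146783 and 212077), the glucuronosyltransferase gene Ugt1a6a (115691 and 137899) and Ugdh, which makes UDP-glucuronate (118120 and 129971). Ifngr1, a chain of the interferon gamma receptor (87696 and 112112), Ugp2, which makes UDP-glucose (50829 and 67138), Reg3b, S100a10 (35680 and 49182) and the sialyltransferase gene St6galnac4 (32612 and 35411) completed the 10 highest. Of these, 7 of the 9 genes named on both types ranked within the 336 highest on the Mouse 430 2.0, while Ifngr1 ranked 2556 and St6galnac4 5737 there.

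Across 560 genes named on both GeneChip types, mean GF signals had a Pearson correlation of 0.492 on the log2 scale and a Spearman correlation of 0.434. This is across genes, which are not independent replicates, and the types differ in probe sets and were scaled separately. Of the 560 genes, 155 (27.7%) exceeded the median of their table on both GF GeneChips of both types, 212 (37.9%) did so on neither type, 93 on the GlycoGeneChip only and 100 on the Mouse 430 2.0 only. Over the 155 the Pearson correlation was 0.583. On the GlycoGeneChip 254 of 573 named genes (44.3%) exceeded the median of all values of that table (860.3). Of Car1, Fabp2, Reg3b and Fabp6 only Reg3b was named on it. For GF against colonized 0 of 395 genes were called in either direction (0.0% and 0.0%), with 17 at an unadjusted p under 0.05 in limma. GF duplicates correlated less on this type, at 0.885 over 279 probe sets.

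**Figure D5:**
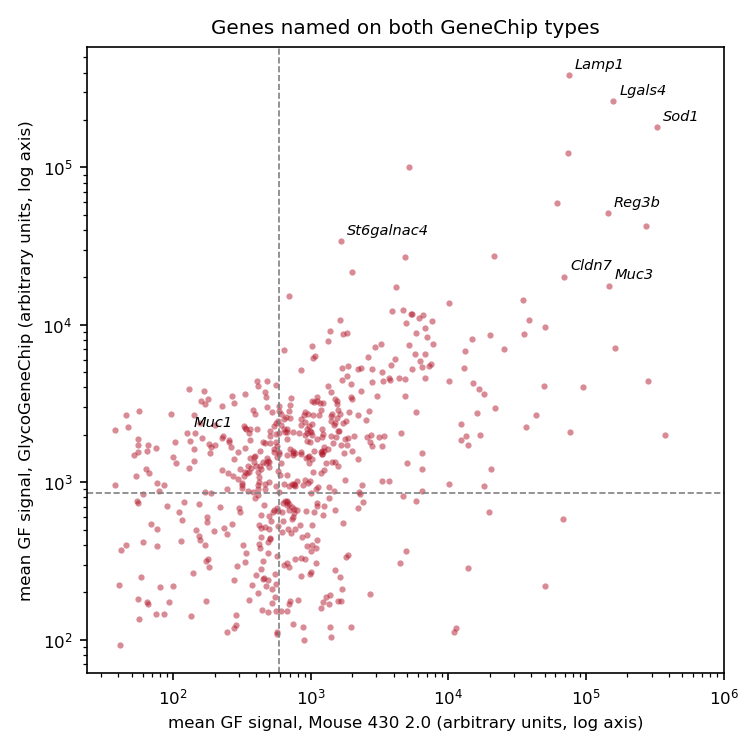
Mean GF signal of 560 genes on the Mouse 430 2.0 (x) and on the GlycoGeneChip (y), both in arbitrary units on log axes, 1 point per gene. Dashed lines are the medians of all values of each table, 583.1 and 860.3. Bright genes such as Lgals4 and Reg3b lie high on both axes, and the correlation over all points was 0.492.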

How the data were processed

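Epithelium was obtained by laser capture, RNA of 4 mice per state was pooled, and duplicate amplified targets were hybridized to Mouse 430 2.0 GeneChips. The deposited values were linear signal intensities per probe set. The authors' software was MAS5, per the labels, the trimmed mean of every GeneChip lay near 1500, and detection calls were not used here. The study's own analysis used dChip. The signals were used here without further scaling. Of 45101 probe sets on the Mouse 430 2.0, 34958 named 1 gene in GEO's annotation, updated through RefSeq, 932 named several genes and 9211 were not named here. Ranks used the brightest probe set of a gene by its mean GF signal, and tests the brightest by mean log2 signal over all 8 GeneChips.

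For tests, values below a floor were set to it before log2 was taken, the floor being the table's median signal, 583.1 for the Mouse 430 2.0 and 860.3 for the GlycoGeneChip, so the fold of a gene near this floor is understated. A probe set entered the fit if any 1 state had its duplicates over that median. All 8 GeneChips of a type entered 1 linear model in limma 3.58.1 (R 4.3.3; lmFit, then eBayes with trend), contrasting GF with the mean of the 3 colonized states, two-sided, with Benjamini-Hochberg adjustment over all probe sets tested and a threshold of 0.05. A call also required a mean log2 signal over all GeneChips above the median, a condition added after the fit had been tested on simulated data. The members and gene lists were chosen with earlier results of these data known. Genes named were the 4 markers, the 30 highest, the 2 leading and up to 6 brightest of each list, the called genes and the 10 brightest on the GlycoGeneChip. The number of GeneChips limits the precision. Alternatives to scaling, floor, filter, model, probe set and GeneChips used were run. Sequences came from RefSeq (GRCm38.p6).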

Additional observations from a re-analysis of the deposited data

How the results depend on the processing

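Compared with 28 probe sets called on the Mouse 430 2.0, 13 were called with median scaling (11 higher and 2 lower in GF, against 15 and 13), 50 with a floor at the 25th percentile, 47 with no floor, 46 with a filter at the 75th percentile, 6 with no filter, 7 with no intensity trend, 1 with the duplicates averaged to pools and 0 to 7 when each GeneChip was left out in turn. Quantile normalization gave 36 (15 higher and 21 lower). A filter on the mean signal, chosen after seeing the data, gave 62, 23 together with averaging to pools, and 27 to 163 when each GeneChip was left out. Without the condition on the mean signal 29 were called, and on the GlycoGeneChip 2 in place of 0. The GlycoGeneChip gave 0 in all other settings, 0 to 0 when each GeneChip was left out. Under the filter on the mean signal, Fabp6, Apoa1 and Igha passed in all 8 fits that left out 1 GeneChip. No difference of a called probe set naming 1 gene, nor that of the brighter Reg3b probe set, changed sign in any setting run. The signs of other differences named here were not checked in this way. Between probe sets of a gene the sign did differ for Plet1 and Prap1. Of the 30 highest genes 15 stayed with the median over probe sets, 17 with only probe sets without the suffix _x_at or _s_at, and 27 to 27 when either GF GeneChip was left out. Of 430 listed genes 286 exceeded the median on both GF GeneChips, and 318 to 329 when either GeneChip was used alone. The cause of these changes was not tested beyond the fewer samples or probe sets that some settings entail. No paired analysis was possible because the states share no replicate numbers. Nothing here bears on the spread between mice, and the depth of a signal over background is unknown without detection calls.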
